A study of Pinus pinaster with 12 samples.

Results

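A set of 270 transcripts of maritime pine roots, out of 253670 in the deposited read count table, was read in every m6A immunoprecipitate (IP) and never in the input RNA. The transcripts were chosen by measured values. Each had 0 reads in all 6 input libraries, at least 50 reads in each of the 6 IP libraries, and no entry in either of the authors' 2 deposited peak lists. Their IP level against the input and their lack of a peak are therefore part of the rule and are described here without a test. A further 248 transcripts met the count criteria but had a listed peak, so the IP-only class held 518 transcripts in all.

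The libraries came from roots of Pinus pinaster seedlings of the Segura-Alcaraz provenance, 1 month old, frozen 24 h after irrigation with 80 mL of distilled water or of 3 mM ammonium chloride. Both treatments had 3 input and 3 IP libraries, numbered 1 to 3, from an experiment that was run 3 independent times per the labels' protocols. All seedlings were grown in vermiculite and had received only distilled water before the treatment. The IP used an anti-m6A antibody on fragmented polyadenylated RNA, and input libraries had no antibody. The number of seedlings in a library is not given in the sources used here. Whole roots were used, so fewer cells of a type and less RNA per cell cannot be told apart. Root identity could not be checked against marker genes, because no gene names accompany the transcript IDs.

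N6-methyladenosine (m6A) is a methylated base inside messenger RNA. In plants it is placed by a nuclear writer complex built on the methyltransferases MTA and MTB, removed by demethylases of the ALKBH family, and bound by reader proteins with a YTH domain that affect the stability and processing of the RNA. In an m6A RNA immunoprecipitation, RNA is fragmented, methylated fragments are pulled down with an antibody, and their abundance is compared with that of the unprecipitated input, which measures how much of the transcript there is. A transcript seen in the IP and not in the input therefore has no measured abundance to set its precipitated reads against.

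The library totals ran from 57945305 to 81534388 counts. Replicate 2 of the water IP held the largest share of reads on transcripts with 0 input reads, 0.768% of its total, against 0.361% to 0.578% in the other 5 IP libraries. In all 12 libraries low counts were more often even than odd. Among counts of 1 to 10, 60.3% to 64.0% were even in the inputs and 73.9% to 81.5% in the IP. Reads of 1 fragment may have been counted separately, so a count may not be a count of independent molecules. The IP-only transcripts without a listed peak showed no clear excess of even counts. Their IP counts, all of at least 50, were even in 48.5% to 55.6% of cases, by library. Whether reads of 1 fragment were counted separately was not tested. Intervals and limits below cover counting error only.

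The 270 transcripts took few of the IP reads. Their reads summed over the 6 IP libraries ran from 341 to 18086, with a median of 745.5, and 75 transcripts had at least 1000. The lowest of the 6 IP counts had a median of 76, and in 80 transcripts it was at least 100. Mean level over the IP libraries, as a count scaled to the library total (counts per 1000000 reads, CPM), had a median of 1.95 and a highest value of 48.4. CPM is not corrected for transcript length, so it does not rank these transcripts by molecules. Together they took 0.0659%, 0.0823% and 0.0844% of the reads of water IP 1, 2 and 3, and 0.0531%, 0.0484% and 0.0778% of ammonium IP 1, 2 and 3. The highest ammonium value lay inside the range of the water libraries.

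Against the 458725661 reads of all 6 inputs, a count of 0 allows a level of up to 0.00654 CPM, which is 3 counts of that total. With the inputs set at this limit, the mean IP level was 137-fold higher for the lowest member. It was 299-fold higher for the median one and 7405-fold higher for the highest. The limit is not a firm ceiling, since the transcripts were chosen for 0 input reads. When the rule was applied to water alone, 85.3% of the transcripts chosen had at most 3 reads in the ammonium inputs. With ammonium alone, 82.9% had at most 3 in the water inputs, so some had more. These folds are therefore no firm lower bounds. They follow from the rule and are no test of enrichment. The labels do not name the library kits of the IP and the input, so precipitation and a difference in library making cannot be told apart in these folds.

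An input count of 0 was the most common of the counts from 0 to 20 among transcripts well read in the IP. Of the 42123 transcripts with at least 50 reads in each IP library, 518 had no input read, while 172 had 1, 242 had 2 and 145 had 3. The share with a listed peak was 47.9% at 0 input reads, 23.6% at 1 to 10 reads, 9.51% at 11 to 100, 10.6% at 101 to 1000 and 15.4% above 1000. The 270 transcripts without a peak thus made up 52.1% of their class, the smallest share without a peak of the 5 ranges of input reads.

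**Figure D1:**
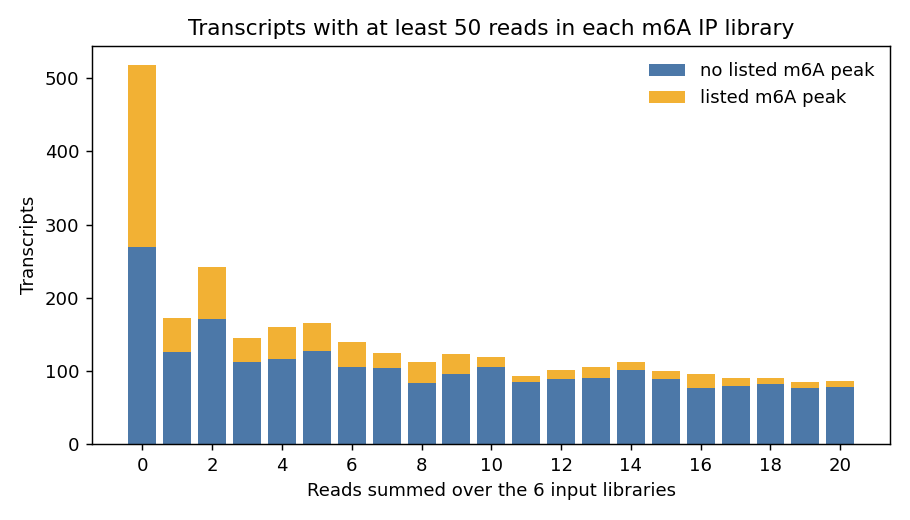
Number of transcripts (vertical axis) by reads summed over the 6 input libraries (horizontal axis, 0 to 20), for transcripts with at least 50 reads in each IP library; blue bars have no listed peak and yellow bars, stacked on them, have one. The bar at 0 holds 270 and 248 transcripts, and the next highest, at 2 reads, holds 171 and 71.

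The edges of the rule were not gaps in the data. Just inside, pp_194103 had 86, 51 and 50 reads in water IP 1, 2 and 3 and 54, 72 and 58 in ammonium IP 1, 2 and 3. The other member nearest the limit, pp_225615, had 72, 63 and 92 reads with water and 50, 54 and 80 with ammonium. Just outside, pp_241059 also had 0 input reads and missed the rule by 1 read in ammonium IP 1, with 54, 316 and 179 reads in the water IP and 49, 191 and 70 in the ammonium IP. The transcript pp_197911 missed it in the same library, with 241, 239 and 95 reads with water and 49, 53 and 66 with ammonium. A lowest IP count of 45 to 49 was found for 57 transcripts outside the rule, and one of 50 to 54 for 40 inside it.

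Among transcripts that failed only by 1 input read, pp_229391 had the most IP reads, 986, 757 and 935 with water and 831, 610 and 1198 with ammonium. The second, pp_193745, had 457, 438 and 755 reads in the water IP and 485, 479 and 740 in the ammonium IP. Its ID directly precedes that of a member, pp_193746, which had 588, 532 and 794 reads with water and 615, 601 and 920 with ammonium and 0 in the inputs. Both were highest in water IP 3 and ammonium IP 3 within their treatment. Transcripts of close ID could share sequence and therefore reads, so these 2 are uncertain as separate transcripts.

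The rule was also applied to the libraries of 1 treatment and read in the other treatment, which shares no library with it. With water alone (0 in 3 inputs, at least 50 in each of 3 IP, no peak in the water list) 909 transcripts were chosen. All 909 had reads in each ammonium IP library (100%, 95% Wilson interval 99.6% to 100%), and 581 had at least 50 in each (63.9%, 60.7% to 67.0%). In the ammonium inputs 512 had no read (56.3%, 53.1% to 59.5%) and 775 had at most 3 (85.3%, 82.8% to 87.4%). With ammonium alone 694 transcripts were chosen, of which 577 had at least 50 reads in each water IP library (83.1%, 80.2% to 85.7%) and 575 had at most 3 reads in the water inputs (82.9%, 79.9% to 85.5%). At most 3 input reads were thus seen again in most of the transcripts, and a count of exactly 0 in 56.3% and, with ammonium alone, in 53.2%. Both count criteria at once, 0 in the 3 other inputs and at least 50 in each of the 3 other IP libraries, were met again by a minority, 35.0% of the transcripts chosen with water and 44.1% of those chosen with ammonium. The intervals treat transcripts as independent. No such shares over all transcripts are given here, so how far they are particular to these transcripts cannot be said.

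Next, 1 replicate number was left out of both treatments, while the peak lists, 1 per treatment, were used as they are. The rule on the remaining 8 libraries chose 502, 479 and 480 transcripts without numbers 1, 2 and 3. Of these, 92.0%, 92.9% and 90.6% had at most 3 reads in the 2 inputs left out, and 78.7%, 83.7% and 84.0% had at least 50 in both IP libraries left out. A count of exactly 0 in both inputs left out was found in 69.1%, 69.7% and 66.25%. That count together with at least 50 reads in both IP libraries was found in 53.8%, 56.4% and 56.25%.

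The transcript with the most IP reads, pp_118725, stood far from the rest in level and in spread. It had 1647, 8361 and 2328 reads (25.9, 142 and 40.2 CPM) in water IP 1, 2 and 3 and 2150, 2942 and 658 reads (32.1, 40.2 and 10.0 CPM) in ammonium IP 1, 2 and 3. The mean was 69.4 ± 63.4 CPM with water and 27.5 ± 15.6 with ammonium (SD, n = 3). Water IP 2 lay above all other libraries, and the 2 groups overlapped through the other libraries. Without this transcript the 270 took 0.0706% ± 0.00882 of water IP reads and 0.0570% ± 0.0173 of ammonium IP reads, against 0.0776% ± 0.0101 and 0.0598% ± 0.0158 with it (SD, n = 3).

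The next 9 by level were more even. The second, pp_177041, had 12.7, 8.94 and 17.0 CPM with water and 11.8, 7.50 and 21.5 with ammonium, lowest in number 2 and highest in number 3 of both treatments. The same order held for pp_193746, with 9.26, 9.04 and 13.7 CPM with water and 9.19, 8.21 and 14.0 with ammonium. It held again for pp_199695, at 10.0, 8.53 and 12.5 CPM with water and 8.53, 8.08 and 11.5 with ammonium. In each of these 3 the groups overlapped over most of their range.

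The other 6 of the 10 lay between 5.36 and 9.69 CPM on average. For pp_140472 the water libraries stood at 11.5, 8.84 and 14.4 CPM and the ammonium libraries at 7.65, 6.46 and 9.28, with an overlap between water IP 2 and ammonium IP 3. For pp_76779 the values were 7.62, 8.26 and 9.27 CPM with water and 5.93, 5.37 and 8.65 with ammonium. The transcripts pp_91293, pp_41559, pp_221115 and pp_163264 all had their highest level in ammonium IP 3, at 13.9, 9.17, 8.99 and 9.98 CPM. In pp_163264 water IP 1 was nearly as high, at 9.29 CPM, while water IP 2 and 3 had 2.74 and 3.09.

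**Figure D2:**
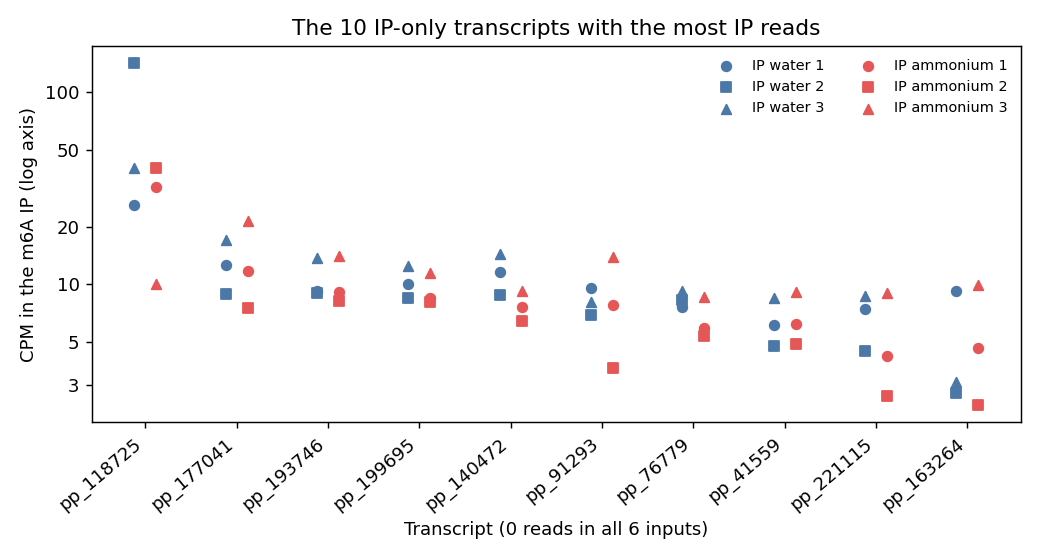
Level in CPM (logarithmic vertical axis) of the 10 IP-only transcripts without a peak with the highest mean level (horizontal axis); blue is water IP, red is ammonium IP, and circles, squares and triangles are replicates 1, 2 and 3. For pp_118725 water IP 2 stands at 142 CPM and ammonium IP 3 at 10.0, whereas pp_177041 is highest in ammonium IP 3, at 21.5.

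The IP-only transcripts shared a pattern across libraries. Relative to each transcript's own mean over the 6 IP libraries, the median log2 level was 0.03, 0.06 and 0.41 in water IP 1, 2 and 3 and -0.30, -0.47 and 0.28 in ammonium IP 1, 2 and 3. Water IP 3 was the highest library for 101 of the 270 transcripts, ammonium IP 3 for 78 and water IP 2 for 72. Ammonium IP 2 was the lowest for 148 and ammonium IP 1 for 64. Libraries of 1 treatment thus lay as far apart as the treatments did.

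The 248 IP-only transcripts with a listed peak had nearly the same order of libraries, with medians of 0.04, -0.13 and 0.47 with water and -0.25, -0.57 and 0.44 with ammonium on the same log2 scale. Transcripts without a peak that had over 1000 input reads and at least 50 reads in each IP library (23507) were nearly flat in the ammonium IP, at -0.03, -0.06 and -0.03, and stood at 0.16, -0.16 and 0.05 in the water IP. Those with 11 to 100 input reads (3987) differed most in water IP 2, where their median was 1.00 and where 80.5% of them had their highest level, against 26.7% of the 270 and 8.87% of the 248. The class with 1 to 10 input reads and no peak (1148) had the order of the IP-only transcripts in the ammonium IP, at -0.36, -0.44 and 0.12. In the water IP it stood at 0.01, 0.50 and 0.20, so the ammonium part of the pattern was not particular to IP-only transcripts. Whether the RNA or the making of single libraries sets these levels was not tested.

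**Figure D3:**
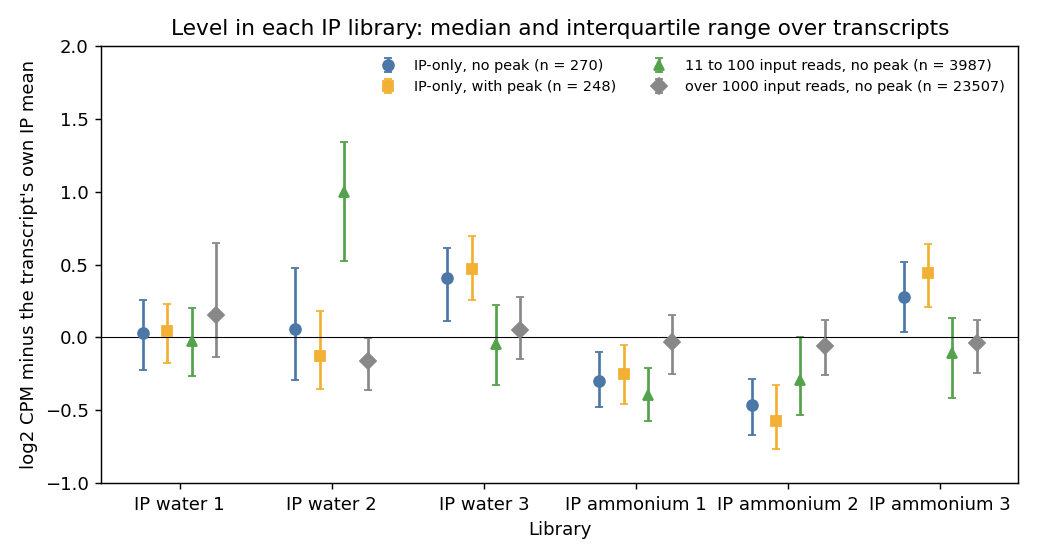
Log2 CPM in each IP library minus the transcript's own mean over the 6 IP libraries (vertical axis), by library (horizontal axis); points are medians and bars interquartile ranges over transcripts of 4 classes. Both IP-only classes are highest in water IP 3 and ammonium IP 3 and lowest in ammonium IP 2, and transcripts with 11 to 100 input reads are highest in water IP 2, at 1.00.

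Variation between replicates was wide in the ammonium IP. The coefficient of variation of CPM over the 3 ammonium IP libraries had a median of 32.1% in the 270 transcripts and 38.3% in the 248 with a peak. In 3211 transcripts without a peak that had over 1000 input reads, and as many IP reads as the middle of the 270 (568 to 1033 in all), it was 17.6%. In the water IP the medians were 29.0%, 29.2% and 39.6% in the same order, so against these abundant transcripts the 270 had the larger value with ammonium and the smaller with water. Transcripts without a peak that had 1 to 10 input reads and at least 50 reads in each IP library lay nearer the 270. Their medians were 30.2% with ammonium and 32.2% with water. With 11 to 100 input reads the medians were 24.2% and 46.7%. The wide spread with ammonium was thus not particular to IP-only transcripts. These medians are descriptions, and no test of their difference was made.

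For 72 of the 270 transcripts, water IP 2 was the highest of the 6 IP libraries. Their median log2 deviation was 0.79 there, which this choice makes high, and 0.14 in water IP 3. Ammonium IP 3 was still the highest ammonium library for 40 of them (55.6%), with ammonium IP 2 the highest for 25 (34.7%). Among the other 198, ammonium IP 3 was the highest ammonium library for 180 (90.9%) and ammonium IP 2 for 6 (3.03%). The grouping partly sets these shares: it required water IP 2 to be the highest of all 6 IP libraries, so the 78 transcripts highest in ammonium IP 3 all fell among the 198. Across the 270 transcripts, the deviation of water IP 2 from water IP 1 and 3 went with that of ammonium IP 2 from ammonium IP 1 and 3 (Pearson r = 0.61, Spearman rho = 0.47) and opposite to that of ammonium IP 3 from ammonium IP 1 and 2 (r = -0.64, rho = -0.55). These libraries share no reads, but transcripts of 1 library share its depth and making, and the values are given as a description. Each deviation is taken against the other 2 libraries of the treatment, so the 2 values of r are not independent of each other. The class nearest in input reads, 1148 transcripts with 1 to 10 input reads, at least 50 in each IP library and no peak, had almost the same values (r = 0.53 and -0.58), and 54.4% of it was highest in water IP 2. In the 248 with a peak the same 2 values of r were 0.17 and -0.24, in transcripts with 11 to 100 input reads 0.53 and -0.47, and in those with over 1000 input reads -0.11 and 0.03. With water IP 1 in place of water IP 2, r in the 270 was -0.58 for ammonium IP 2 and 0.55 for ammonium IP 3.

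The transcripts with the largest spread show this pattern in single values. Besides pp_118725, pp_111705 had 0.882, 10.7 and 4.50 CPM in water IP 1, 2 and 3 and 2.20, 5.82 and 1.04 CPM in ammonium IP 1, 2 and 3, a ratio of highest to lowest of 12.2. For pp_104041 the values were 1.57, 11.2 and 4.88 CPM with water and 3.18, 5.19 and 0.977 CPM with ammonium, a ratio of 11.5. Both were high in number 2 of each treatment and low in water IP 1 and ammonium IP 3. At the other end, pp_249552 had 0.929, 0.935 and 0.966 CPM with water and 0.866, 1.07 and 1.05 with ammonium, a ratio of 1.23, on 55 to 78 reads per library. The transcripts pp_222296 and pp_218204 had ratios of 1.40 and 1.48. Over all 270 the median ratio was 2.50.

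**Figure D4:**
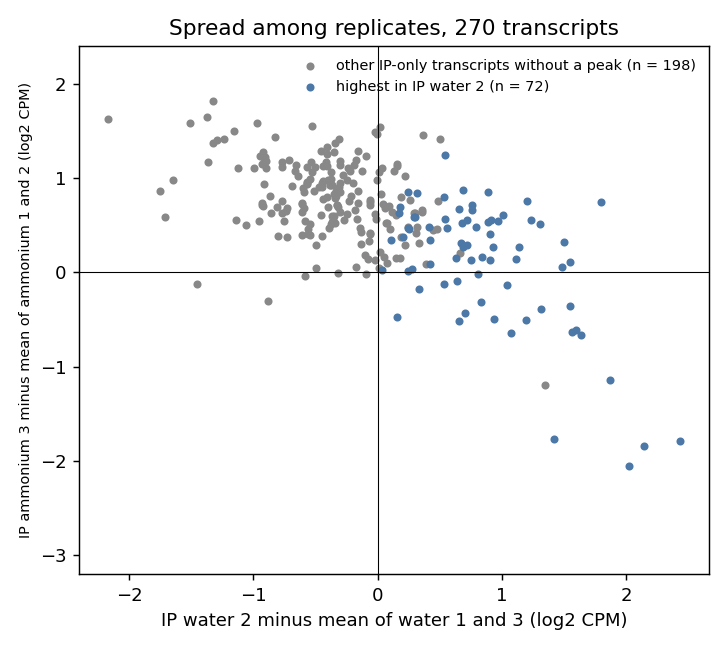
Each point is 1 of the 270 transcripts: log2 CPM of water IP 2 minus the mean of water IP 1 and 3 (horizontal axis) against ammonium IP 3 minus the mean of ammonium IP 1 and 2 (vertical axis); blue marks the 72 that were highest in water IP 2. Of the 270, 151 lie in the upper left and 23 in the lower right, with 91 in the upper right and 5 in the lower left.

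No transcript of the set passed the test for a response to ammonium. The treatment was not part of the rule, so ammonium was compared with water over the 6 IP libraries with edgeR's quasi-likelihood test, fitted to all 99846 transcripts that passed its expression filter. All 270 passed this filter, since the rule sets a higher count. With edgeR 0 of the 270 were called at an adjusted p under 0.05, where 0% of all transcripts tested were called. DESeq2 called 0 of the 270 and 0.284% of all. Because each member needed 50 reads in every IP library, a transcript lost or gained with ammonium could not be a member, and the rule limits how far a member can differ.

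At an unadjusted p under 0.05, edgeR gave 1 of the 270 higher with ammonium (0.370%) and 4 lower (1.48%), where 5.25% and 5.2% of all transcripts tested were higher and lower. In either direction DESeq2 gave 8 of the 270 (2.96%), against 11.8% of all tested. On CPM scaled by the edgeR normalization factors, the libraries of the treatments did not overlap, with ammonium higher, in 4 of the 270 (1.48%, against 10.3% of all tested), and with ammonium lower in 20 (7.41%, against 6.16%). Either direction at p under 0.05 was reached by 2.82% of the IP-only transcripts with a peak and by 14.96% of transcripts with at least 50 reads in each IP library, input reads and no peak. The standard error (SE) of the log2 change had a median of 0.43 in the 270, 0.32 in the latter class and 0.56 over all transcripts tested, of which 10.4% reached p under 0.05 in either direction. The 270 thus had a smaller share than both, with a larger SE than the latter class and a smaller SE than all tested. Whether the SE sets these shares was not tested.

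The fitted log2 change with ammonium had a median of -0.12 over the 270, against -0.23 over all transcripts tested. It was above 0 in 105 of the 270 (38.9%), and in 38.1% of all tested. In the 270 it ran from -1.15 to 1.30, and 3 transcripts (1.11%) reached a 2-fold change, against 17.0% of all tested. In the transcripts with at least 50 reads in each IP library, input reads and no peak, whose counts met the same minimum, the median was 0.05 and 4.68% reached 2-fold. With only transcripts of at least 50 reads in 3 IP libraries in the fit, the median was -0.21 over the 270 and -0.11 over all, so whether the 270 lay above or below all transcripts depended on the filter. The sign of the median depended on single libraries: it was 0.06 without ammonium IP 2 and -0.33 without ammonium IP 3, it was -0.27 without water IP 1, and it was -0.05 without water IP 2, water IP 3 or ammonium IP 1. With scaling by library totals alone 49 of the 270 were above 0 (18.1%, against 25.8% of all tested). The median was then -0.32, but the median of all transcripts moved in the same direction, to -0.45.

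**Figure D5:**
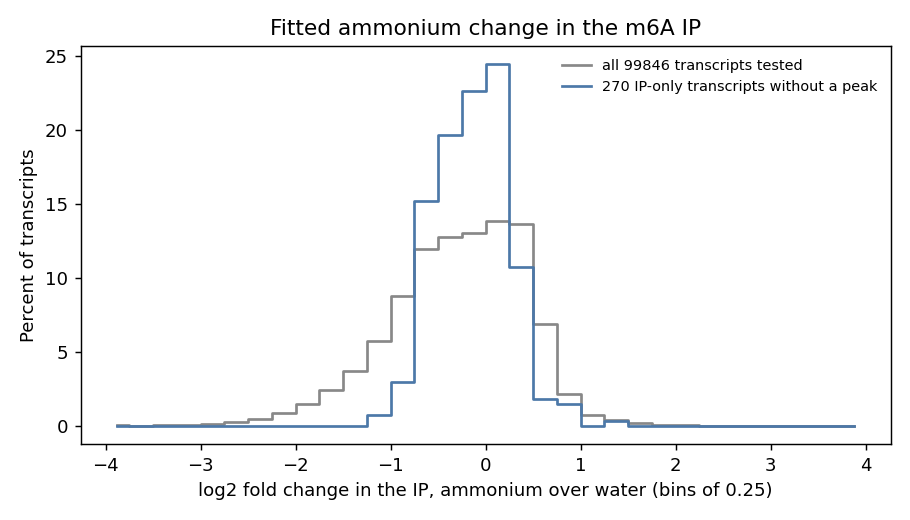
Percent of transcripts (vertical axis) by fitted log2 fold change in the IP, ammonium over water, in bins of 0.25 (horizontal axis), for the 270 IP-only transcripts without a peak (blue) and all 99846 transcripts tested (grey). The 270 run from -1.15 to 1.30 with a median of -0.12; values beyond -4 and 4 are placed in the outermost bins.

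Higher with ammonium, pp_162068 ranked first. It had 97, 92 and 90 reads (1.53, 1.56 and 1.55 CPM) in the water IP and 120, 167 and 387 reads (1.79, 2.28 and 5.90 CPM) in the ammonium IP, so the groups did not overlap but ammonium IP 3 lay far above the other 2. Its log2 change was 1.30 (SE 0.46, adjusted p = 0.464 with edgeR). For pp_65265 the levels were 0.976, 1.51 and 0.932 CPM with water and 1.42, 1.98 and 1.94 CPM with ammonium, and the groups overlapped in CPM (log2 change 0.85, SE 0.42, adjusted p = 0.493 with edgeR). The next 3, pp_252861, pp_105889 and pp_126345, had log2 changes of 0.75 to 0.84 and their highest value in ammonium IP 3, at 2.61, 10.9 and 3.75 CPM. Omission of 1 library moved 4 of these 5 changes by more than 1.5 times: without ammonium IP 3 the log2 change was 0.65 for pp_162068, 0.10 for pp_105889 and 0.26 for pp_126345, and without water IP 1 it was 0.54 for pp_252861.

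Lower with ammonium, pp_16371 ranked first, with 239, 216 and 225 reads (3.76, 3.67 and 3.88 CPM) in the water IP and 133, 112 and 153 reads (1.99, 1.53 and 2.33 CPM) in the ammonium IP. All 3 water libraries lay above all 3 ammonium libraries, but the change did not pass over all transcripts tested (log2 change -0.74, SE 0.33, adjusted p = 0.475 with edgeR). In pp_186805 the levels were 3.61, 4.57 and 3.24 CPM with water and 1.45, 2.38 and 1.97 with ammonium (log2 change -0.77, SE 0.34, adjusted p = 0.476 with edgeR). In pp_156193 they were 2.69, 1.77 and 1.93 CPM with water and 0.821, 0.888 and 1.24 with ammonium. The groups did not overlap in these 2 either, nor in pp_216276, at 2.17, 3.67 and 1.28 CPM with water and 0.926, 0.943 and 1.13 with ammonium. The same held for pp_249374, at 3.92, 3.28 and 4.19 CPM with water and 1.58, 0.956 and 2.72 with ammonium. The log2 change of pp_216276 went from -1.04 to -0.50 without water IP 2, and that of pp_249374 from -0.91 to -0.59 without ammonium IP 2.

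The IP-only transcripts with a listed peak had a somewhat higher IP level than those without one, in ranges that overlapped. Those with a peak had a median of 881.5 reads over the 6 IP libraries (interquartile range 670.75 to 1362) and 2.31 CPM. Those without one had 745.5 reads (568 to 1033.75) and 1.95 CPM, and no test of this difference was made. The share with a peak was 41.7% at a lowest IP count of 50 to 99 and 58.3% at 100 or more. The most read transcript with a peak, pp_59646, had 1193, 815 and 1270 reads with water and 1128, 1009 and 1530 with ammonium, fewer in each library than pp_118725 except ammonium IP 3. The second, pp_222078, had 1056, 673 and 1143 reads with water and 905, 847 and 1852 with ammonium. Both were highest in number 3 and lowest in number 2 of their treatment, as pp_177041 was.

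The peaks of 164 of the 248 stood in both lists, those of 36 were listed for water alone and those of 48 for ammonium alone. Their peaks had a median fold enrichment of 7.67 in the authors' deposited table for water and 7.33 in that for ammonium, where all peaks had 11.7 and 12.7. How the authors' caller set a fold for a transcript without input reads is not given in the sources used here.

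Transcript numbers gave the only other property that could be set beside the counts. Of the 270, 30 (11.1%) had a number next to that of another member, in 14 runs of at most 3, where 77.4% of all transcripts with at least 50 reads in each IP library lay in such runs. That class is far larger, which by itself makes neighbours more frequent. Of the 248 IP-only transcripts with a peak, a class of like size, 12 (4.84%) lay in 6 such runs. In the 3-member run from pp_71526 to pp_71528 the reads in water IP 1, 2 and 3 and ammonium IP 1, 2 and 3 were 261, 201, 169, 126, 146 and 357 for the first. They were 213, 53, 159, 98, 73 and 144 for pp_71527 and 264, 73, 210, 164, 83 and 216 for pp_71528, so pp_71527 and pp_71528 had the same libraries high and low and pp_71526 did not. In the other run of 3, pp_236648, pp_236649 and pp_236650 had 72 to 113, 96 to 159 and 195 to 270 reads per IP library.

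The transcripts with a number directly before or after a member, members left out, were 503. Of these, 161 (32.0%) had no input read at all and 14 (2.78%) had at least 50 reads in each input, where the table as a whole had 19.3% and 24.4%. In the IP, 126 (25.0%) had at least 50 reads in each library, against 16.6% of the table. Neighbours of the 248 with a peak were alike in the input, with 36.8% at 0 and 2.70% at 50 or more. In the IP they were not, since 13.3% had at least 50 reads in each library, below the 16.6% of the table. What a close number means for sequence or gene is not given in the files.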

How the data were processed

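Input and m6A IP libraries of water and ammonium roots (3 each) were analysed from the table deposited by the authors, which holds whole-number read counts per transcript ID not normalized. The tools bcl2fastq and BWA are named in the submitters' processing notes. What the sources used here do not give is their versions, the reference, strandedness, any duplicate removal, and how read pairs and reads matching several transcripts were counted. Each peak of the authors' 2 deposited lists has, per the file headers, a fold enrichment (a ratio) and a p-value, and there is 1 list per treatment, not per library. How these lists were called decides which transcripts lack a peak.

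Groups and replicate numbers came from the titles. Members and comparison classes were taken by their counts in a script, and were chosen, like the tests, with earlier results of these data known. CPM is a count divided by the library total. Ammonium was compared with water in the 6 IP libraries with edgeR 4.0.16 in R 4.3.3: trimmed mean of M-values scaling, the filterByExpr defaults (count 10, total 15), quasi-likelihood fits with robust estimation, two-sided tests, Benjamini-Hochberg adjustment over all transcripts tested, calls at adjusted p under 0.05. The script was tested on simulated counts. Alternatives were DESeq2 1.42.0, other scaling, filters and fits, and omission of single libraries. The p-values weigh the difference between treatments against the spread between libraries of a treatment. That spread was estimated with information from all transcripts tested.

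Named transcripts were the 10 members with the highest mean CPM, the 5 of lowest p among those higher and the 5 among those lower with ammonium, the 3 with the largest and the 3 with the smallest ratio of highest to lowest CPM, the longest runs of IDs, the transcripts nearest the limits of the rule, and the 2 most read IP-only transcripts with a peak. Gene lists and cell type markers were not used, since no names are paired with the IDs, and no sequences or lengths were at hand.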

Additional observations from a re-analysis of the deposited data

How the results depend on the processing

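None of the 270 transcripts was called for ammonium under any of the 14 alternatives, and the 10 named by p kept their direction in all 140 values, with adjusted p from 0.123 to 0.962. In 6 of the 10 the omission of 1 library moved the log2 change by more than 1.5 times, down to 0.10 in pp_105889 without ammonium IP 3. The number called over all transcripts moved from 0 to 284 with DESeq2, 1863 without a filter and 879 in a fit of all 12 libraries, and ran from 0 to 34 when 1 IP library was omitted. Whether same-numbered IP libraries of the treatments are paired was not settled. Over all transcripts with at least 50 reads in each IP library, correlations of deviations were 0.14, 0.10 and 0.00 for numbers 1, 2 and 3. For unlike numbers they ran from -0.16 to 0.07. In the 270 the same-numbered values were 0.07, 0.61 and 0.29, and those for unlike numbers ran from -0.64 to 0.55. With the replicate number as a block 8 transcripts were called, none of them a member. The median log2 change of the members ran from -0.32 to -0.02 over the other settings and from -0.33 to 0.06 when 1 IP library was omitted.

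Membership depended on the limits. It rose from 270 to 1122 with a minimum IP count of 20 and to 679 with up to 3 input reads, was 518 with the peak lists ignored and fell to 80 with a minimum of 100. Omission of 1 library from the rule gave 281 to 341. The members' share of IP reads rose to 0.165% with water and 0.123% with ammonium at a minimum of 20, and to 0.206% and 0.153% with up to 3 input reads. Omission of 1 library gave 0.0741% to 0.0834% with water and 0.0508% to 0.0654% with ammonium. Depth limits the rule itself: a transcript with 0 input reads may still be present in the input at a low level. The limit of 0.00654 CPM used here is not a firm ceiling.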

Other observations

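Absence from the input was common well beyond the 270 transcripts. Over all transcripts of the counts file, 49013 had 0 reads in all 6 inputs, of which 16801 had none in the IP either and 32212 had at least 1 IP read. Reads in all 6 IP libraries were found for 7931 of the 32212 (24.6%), and reads in a single IP library for 7259 (22.5%). Of these 7259, water IP 2 was the library with the reads for 2604 (35.9%), against 689 to 1285 for each of the other 5. Among transcripts with 0 input reads the share with a listed peak was 0.255% at a lowest IP count of 1 to 9, 4.02% at 10 to 19, 14.5% at 20 to 49, 41.7% at 50 to 99 and 58.3% at 100 or more.

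The reverse class was also present: 24340 transcripts had input reads and none in the 6 IP libraries, and 222 of them had at least 50 reads in every input. Counts of 2 outnumbered counts of 1 in every library, by 15670 to 2808 transcripts in water IP 1 and by 12671 to 8345 in water input 1.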
